A study of Mus musculus with 4 samples.

Results

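Thyrotrophs are the pituitary cells that make thyroid-stimulating hormone (TSH), and 166 of the 29899 cells kept from 4 single-cell RNA libraries of mouse pituitary glands met the rule used to find them. Expression was counted in UMIs (unique molecular identifiers), each standing for 1 captured RNA molecule. A cell was kept with at least 500 detected genes and at most 20% of UMIs from mitochondrial genes. A kept cell was called a thyrotroph when Tshb, the beta subunit of TSH, held at least 0.3% of its UMIs and at least 5 UMIs, when Cga, the alpha subunit that TSH shares with the gonadotropins, held at least 1%, and when at least 1 UMI of Trhr, Dio2, Pvalb or Foxl2 was present. The cells were thus chosen by their measured hormone transcripts. At 14 weeks there were 38 in the wild-type (WT) library and 58 in the library of mice overexpressing p25 (p25OE). At 40 weeks the WT library held 70 and the p25OE library 0, and values below are given in this order.

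TSH is a dimer of the products of Tshb and Cga. Thyrotropin-releasing hormone from the hypothalamus acts on thyrotrophs through the receptor encoded by Trhr, which signals through Gq and phospholipase C, and thyroid hormone feeds back to lower Tshb and Cga transcription through the nuclear receptor encoded by Thrb. Dio2 encodes the deiodinase that turns thyroxine into the active hormone inside the cell. The lineage depends on Pou1f1 (Pit-1) and Gata2, factors that also serve somatotrophs and lactotrophs in the first case and gonadotrophs in the second.

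The glands came from mice that overexpress p25, the fragment of the Cdk5 activator p35 that holds Cdk5 active, and from WT littermates, at 14 and at 40 weeks of age. The labels give all 4 libraries the strain C57BL/6- B6;CBA-BiTg and the design text names C57BL/6. The promoter or cell type that drives p25, and how many glands went into a library, are not given in the labels. Each group was 1 library, so a difference between conditions has no replicate check and no p-value, and every interval between conditions covers counting error only. Between cell classes the 3 libraries that held thyrotrophs served as replicates.

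The libraries held 95242353, 77275454, 53714895 and 60662506 UMIs in 8911, 15018, 12054 and 8125 cell barcodes. Kept cells numbered 6579, 7667, 7927 and 7726, with medians of 10778, 6340, 4940 and 6626 UMIs. The 14-week pair shared 32 barcodes and the 40-week pair 135, and 0 barcodes were thyrotrophs in both libraries of a pair. Barcodes of the 14-week libraries came from another barcode set than those of the 40-week libraries, although the labels name 1 kit version, so age cannot be told apart from kit or run. Free RNA gives UMIs of a gene in cells that do not express it. In the WT library of 40 weeks 40.2% of macrophages (median 2119 UMIs), which do not make TSH, held at least 1 Tshb UMI, against 3.34% (median 3541) and 9.68% (median 3072) in the WT and p25OE libraries of 14 weeks.

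The share of thyrotrophs among kept cells was 0.578% (exact binomial 95% interval 0.409 to 0.792), 0.756% (0.575 to 0.977) and 0.883% (0.689 to 1.11) in the 3 libraries that held them. The intervals of the 14-week libraries overlapped. In the p25OE library of 40 weeks 0 of 7726 kept cells met the rule, with an exact binomial 95% interval up to 0.0477%. Pomc-rich cells made up a larger part of that library. Among kept cells with Pomc under 5% of UMIs the shares were 0.655%, 1.05%, 1.06% and 0 of 3330 (exact interval up to 0.111%). The first threshold alone was met by 50, 77, 92 and 0 cells, and in the p25OE library of 40 weeks 37 kept cells (0.479%) held any Tshb UMI. Together these cells held 96 Tshb UMIs, against 18669, 29425 and 43449 in the kept cells of the other libraries. The cell with the highest Tshb share there held 29 Tshb UMIs (0.269%) of 10782, with Cga at 0.260%. Other endocrine classes were also small in that library, with 2 gonadotrophs and 25 somatotrophs against 53 and 841 in WT at 40 weeks and 200 macrophages against 841, and the part of cell number, RNA per cell and library in this was not tested.

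**Figure D1:**
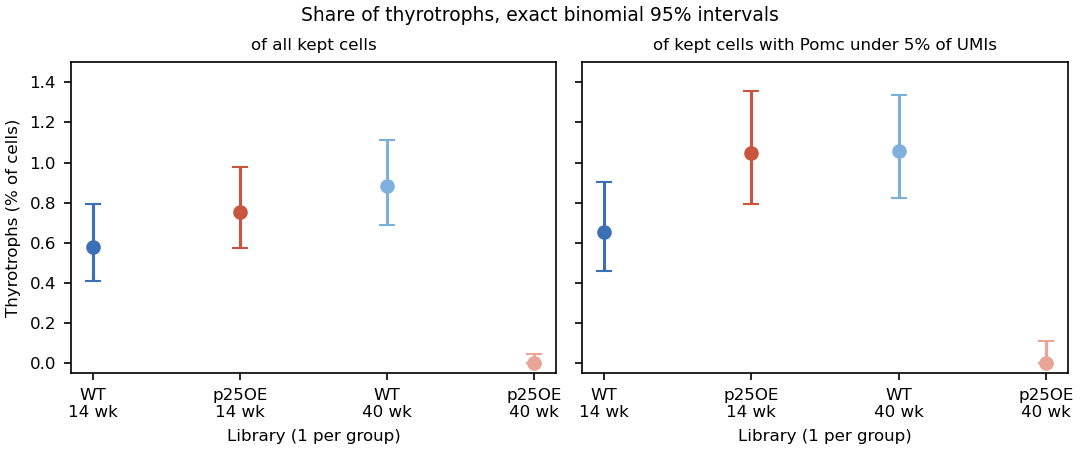
Thyrotrophs as a percentage of all kept cells (left) and of kept cells with Pomc under 5% of UMIs (right) in the 4 libraries, 1 per group; points are shares and bars are exact binomial 95% intervals. The p25OE library of 40 weeks sits at 0 in both panels, and the other libraries range from 0.578% to 0.883% and from 0.655% to 1.06%.

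Cells on both sides of the thresholds were sparse. The lowest Tshb share of a thyrotroph was 0.320%, 0.351% and 0.30%, and the highest share that failed was 0.282%, 0.298% and 0.290%. For Cga the lowest share inside was 1.28%, 1.09% and 1.24% and the highest outside 0.854%, 0.750% and 0.373%. A further 8, 13 and 13 cells met both hormone thresholds and lacked only a UMI of the other 4 genes, and these were shallow, with medians of 1663.5, 1759 and 2625 UMIs. The thyrotrophs themselves had medians of 15609.5, 12813.5 and 12230 UMIs and 4262.5, 3769 and 2967.5 detected genes. Their UMIs summed to 728664, 791435 and 887860.

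Tshb and Cga are shown first as sequence, since both define the cells. The 250 bases before each gene's start (RefSeq, GRCm38.p6, 5′ to 3′ on the gene's strand) are Tshb chr3:102782715-102782964 (minus strand) and Cga chr4:34893529-34893778 (plus strand), with every GATA and TATAAA, searched on both strands, in capitals.
Tshb: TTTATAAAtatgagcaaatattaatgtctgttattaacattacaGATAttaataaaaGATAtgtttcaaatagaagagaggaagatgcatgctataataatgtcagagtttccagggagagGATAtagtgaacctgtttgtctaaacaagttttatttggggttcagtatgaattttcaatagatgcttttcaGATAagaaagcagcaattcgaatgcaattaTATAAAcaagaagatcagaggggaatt
Cga: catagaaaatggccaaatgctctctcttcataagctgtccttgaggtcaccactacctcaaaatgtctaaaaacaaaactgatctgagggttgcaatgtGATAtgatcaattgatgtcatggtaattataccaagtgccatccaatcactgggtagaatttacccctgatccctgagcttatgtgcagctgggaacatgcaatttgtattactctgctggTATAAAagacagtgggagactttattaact
The Tshb window held 4 GATA matches, beginning at bases -206, -193, -129 and -57 counted back from the start, and a TATAAA at -27, besides TATAAA matches on each strand that overlap each other at the far end of the window. In the Cga window there was 1 GATA, at -151, and 1 TATAAA, at -30. Of 32851 RefSeq promoter windows of this length, 53.6% held a GATA and 12.4% a TATAAA on either strand. TATNCAT, a core of the sites that Pou1f1 binds, and TGACGTCA, the cyclic AMP response element, matched in neither window and in 7.92% and 1.55% of all windows.

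Tshb chose the cells, so its levels are a description. Per cell, Tshb held from 0.320% through a median of 1.61% to 7.24% of UMIs in WT at 14 weeks, from 0.351% through 2.37% to 14.6% in p25OE at 14 weeks, and from 0.30% through 2.55% to 13.6% in WT at 40 weeks. Cga held from 1.28% through 5.74% to 17.7%, from 1.09% through 4.32% to 9.79%, and from 1.24% through 10.5% to 25.1%. All ranges overlapped widely. In sums over the cells, scaled so that the median gene is equal between libraries (scaled CPM), Tshb stood at 18182, 30339 and 41537 and Cga at 52369, 42523 and 118498. The p25OE cells of 14 weeks thus held 1.67 times the Tshb of WT (counting interval 1.63 to 1.70) and 0.812 times the Cga (0.801 to 0.824). Each UMI marks 1 captured 3′ end whatever the transcript's length, so Cga UMIs per Tshb UMI can be given per cell. The median was 3.15 (range 1.5 to 16.7), 1.64 (0.367 to 13.7) and 3.22 (1.08 to 27.2). Without the cells with stem-cell markers described below, the ratios of p25OE to WT were 1.34 for Tshb and 0.633 for Cga.

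Cells rich in Tshb were in general rich in Cga. The Spearman correlation of the 2 shares over cells of 1 library was 0.646 (38 cells), 0.409 (58 cells) and 0.644 (70 cells). These cells share a library and the thresholds, and both shares have the same denominator. Without the cells that also met the rule of another class it was 0.589, 0.394 and 0.702.

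**Figure D2:**
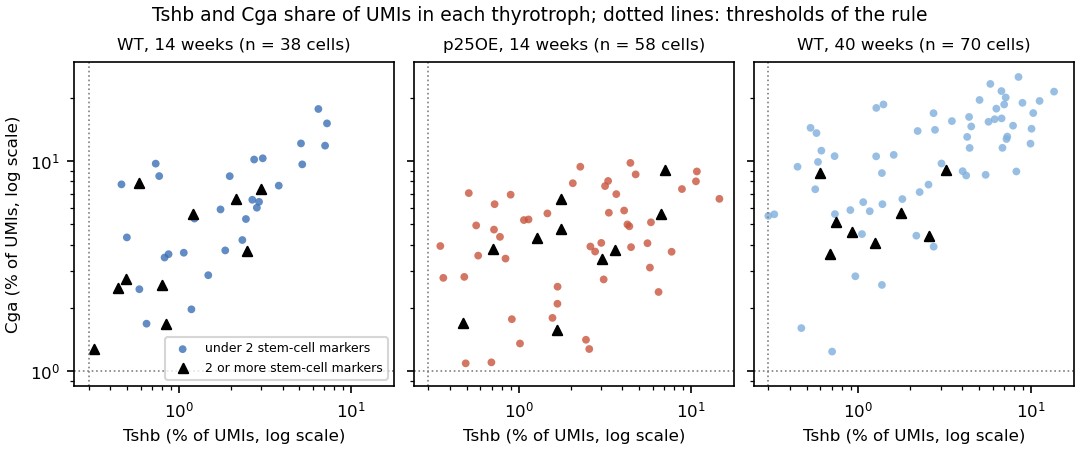
Share of UMIs from Tshb (x, log scale) and Cga (y, log scale) in each thyrotroph of the 3 libraries that held any (38, 58 and 70 cells); dotted lines are the thresholds and black triangles are cells with UMIs of 2 or more of the stem-cell markers Sox2, Sox9, Cdh26 and Cyp2f2. Cga shares reach 17.7%, 9.79% and 25.1%, and the triangles lie mostly in the lower part of the Tshb range in both WT libraries.

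The other 4 genes of the rule also chose the cells, so their values are a description, between classes and between conditions, and no test is made of them. Dio2 was found in most cells of every library, and Trhr, Foxl2 and Pvalb in fewer. Dio2 was detected in 36 of 38, 53 of 58 and 52 of 70 cells, at 295, 315 and 208 scaled CPM. Trhr was detected in 31, 32 and 27 cells, at 82.7, 64.9 and 45.0 scaled CPM. For Foxl2, a forkhead factor that gonadotrophs share, there were 22, 28 and 25 cells and for Pvalb, a calcium-binding protein, 21, 25 and 34. With every cell thinned to 1000 UMIs, Trhr remained in 10.5%, 6.90% and 1.43% of thyrotrophs and in 0 of 56, 72 and 53 gonadotrophs. Thinned Dio2 stood at 31.6%, 29.3% and 18.6% of thyrotrophs against 5.36%, 1.39% and 3.77% of gonadotrophs and at most 0.596% of macrophages. Between p25OE and WT at 14 weeks the ratio of scaled CPM was 1.07 for Dio2 (0.891 to 1.28) and 0.784 for Trhr (0.537 to 1.14).

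Markers of other cell types bear on the label. Over the thyrotrophs, Crhr1, the corticotroph receptor, was at 0 in all 3 libraries. Tbx19, also a corticotroph marker, had 0, 4 and 2 UMIs. The gonadotroph receptor Gnrhr was at 0 in WT at 14 weeks, and in p25OE at 14 weeks all 27 of its UMIs and 155 of the 156 Lhb UMIs lay in 1 cell, which also met the gonadotroph rule. In WT at 40 weeks Gnrhr had 2 UMIs in 2 cells, and Lhb was found in 55 of 70 thyrotrophs (163 UMIs, 184 CPM, beside 466 CPM over the other kept cells). Nr5a1, another gonadotroph marker, went the other way at 14 weeks, with few UMIs (8, 5 and 3, in 5, 4 and 3 cells). Its level was 10.98, 6.32 and 3.38 CPM, beside 2.61, 2.63 and 3.37 over the other kept cells. Median Gh was 0.287%, 0.444% and 2.24% of UMIs per thyrotroph, below the 0.387%, 0.924% and 5.53% of macrophages of the same libraries, which do not make it. Median Prl, at 0.503%, 0.430% and 2.03%, and Pomc, at 0.0611%, 0.0918% and 0.752%, were likewise below their share in macrophages. Macrophages were much shallower, with medians of 3541, 3072 and 2119 UMIs against 15609.5, 12813.5 and 12230 in thyrotrophs. A like number of UMIs is thus a larger share in them. Whether the Gh, Prl and Pomc UMIs of thyrotrophs are free RNA was not tested. A minority carried much more: 6 of 38, 8 of 58 and 14 of 70 cells also held Gh or Prl at 20% of UMIs, Pomc at 5%, 5 UMIs of macrophage markers, or met the gonadotroph rule. These cells had medians of 29741.5, 20256.5 and 16341 UMIs against 14854, 12129.5 and 11393 in the remainder. No doublet caller was run, so whether they are pairs of cells was not tested.

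Some thyrotrophs carried stem-cell markers. UMIs of at least 2 of Sox2, Sox9, Cdh26 and Cyp2f2 were present in 10 of 38 thyrotrophs (26.3%, exact interval 13.4 to 43.1), 10 of 58 (17.2%, 8.59 to 29.4) and 8 of 70 (11.4%, 5.07 to 21.3). Among gonadotrophs the shares were 7.02%, 1.35% and 3.77%, among somatotrophs 10.0%, 2.83% and 6.66%, and among macrophages 2.23%, 2.33% and 0.476%. The shares were not tested against each other, and in WT at 40 weeks the intervals of thyrotrophs and gonadotrophs (0.460 to 13.0) overlapped. Depth differed too: gonadotrophs had medians of 18576, 7266 and 7598 UMIs, against 15609.5, 12813.5 and 12230 in thyrotrophs. The marked thyrotrophs were deep, with medians of 29107, 19923.5 and 15482.5 UMIs against 13619.5, 10089.5 and 11557 in the unmarked ones. Their median Tshb share was lower, at 0.825% against 1.92%, 1.77% against 2.51% and 1.08% against 2.76%. They held much of the UMIs of a set of genes picked after their values were seen. Of Mia they held 97.5% of 236 UMIs, 91.0% of 100 and 72.3% of 267, and of Gstm1 98.8% of 169, 77.9% of 68 and 67.2% of 67. For Rbpms the shares were 97.3%, 88.7% and 70.4%. Of Cyp2f2, which helps to define these cells, they held 100%, 100% and 89.5%. All 4 stem-cell markers were detected, and summed to 414, 210 and 94.6 CPM over the thyrotrophs against 118, 125 and 132 over the other kept cells. Whether these are pairs of cells was not tested, and results that rest on them are given with and without them.

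One WT cell of 14 weeks held nearly all Cck of the thyrotrophs. It was also the 1 WT thyrotroph of that age with at least 5 UMIs of macrophage markers, of which it held 13. It held all 136 Cck UMIs of the WT thyrotrophs, both Mtnr1a UMIs, 5 of 22 Eya3 UMIs and 16 Gata2 UMIs, with 0 UMIs of Trhr, Dio2 and Pou1f1. Cck, Mtnr1a (a melatonin receptor), Eya3 and Tac1 were listed as markers of the thyrotrophs of the pars tuberalis, the gland's upper sleeve, which respond to melatonin. Tac1 was at 0 in all 3 libraries. Elsewhere among thyrotrophs Mtnr1a was at 0, and Cck had 2 UMIs, in 2 cells of WT at 40 weeks. Eya3 was not confined to that cell, and was found in 14 of 38, 15 of 58 and 11 of 70 thyrotrophs. Its level was 30.2, 25.3 and 13.5 CPM, against 10.2, 10.2 and 8.19 over the other kept cells.

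Against gonadotrophs, the other cells that make Cga, thyrotrophs were set apart by a granule protein, a protease, nuclear receptors and Pou1f1. Gonadotrophs were kept cells with Lhb plus Fshb at 0.3% of UMIs or more, Cga at 1% and Gnrhr or Nr5a1 (57, 74 and 53 cells). UMIs were summed per class and library and tested with edgeR's quasi-likelihood test with the library as a block (n = 3 libraries), leaving out the genes of the rules. Of 8234 genes tested, 599 were higher in thyrotrophs (7.27%) and 577 lower (7.01%) at an adjusted p under 0.05. Levels in this and the next comparison are plain CPM of summed UMIs. The log2 differences come from the fit, which also corrects for the room that Gh takes in somatotrophs.

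Chgb, chromogranin B of the secretory granule, stood at 18498, 29014 and 14934 CPM in thyrotrophs and at 717, 1241 and 1045 in gonadotrophs. All 166 thyrotrophs held it. The log2 difference was 4.5 (SE 0.16, adjusted p = 1.55e-17). Prss28, a secreted serine protease best known from the mouse uterus, stood at 180, 211 and 149 CPM against 0, 1.84 and 0 (log2 difference 8.13, SE 0.47, adjusted p = 1.09e-12). Its UMIs came from 17, 16 and 22 cells, so most thyrotrophs had none. Vdr, the vitamin D receptor, was found in 25, 34 and 27 cells at 93.3, 89.7 and 36.1 CPM against 0, 0 and 2.45 (6.91, SE 0.57, adjusted p = 8.91e-10). Thy1, a surface protein, stood at 166, 220 and 248 CPM against 5.07, 3.68 and 22.1. Dlk1, a Notch-related membrane protein, stood at 4449, 4795 and 5704 CPM against 253, 73.6 and 633. For Irs4, an insulin receptor substrate, the levels were 327, 267 and 126 CPM against 16.2, 14.7 and 12.3. In each of these genes every thyrotroph library lay above every gonadotroph library.

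Among genes lower in thyrotrophs, Rnase1, a secreted ribonuclease, was at 0 in all 3 thyrotroph sums and at 209, 162 and 206 CPM in gonadotrophs, at least 158-fold higher there with 3 counts as the floor over the class. Tgfbr3l, a co-receptor through which inhibin B acts on gonadotrophs, stood at 0, 48.0 and 14.6 CPM against 1921, 1429 and 3117 (log2 difference -6.56, SE 0.42). Spp1, osteopontin, stood at 13.7, 5.05 and 18.0 CPM against 1017, 511 and 684. Nr0b1, the gonadotroph nuclear receptor DAX1, had 1 UMI among thyrotrophs and 82.1, 88.3 and 31.9 CPM among gonadotrophs. All 30 genes named by rank in this comparison passed the test in the same direction under every alternative in which they were tested (6 to 10 of them).

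Against somatotrophs, the growth hormone cells (Gh at 20% of UMIs or more with Ghrhr, 886, 812 and 841 cells), 1220 of 11906 genes were higher in thyrotrophs (10.2%) and 1080 lower (9.07%). Prss28, Vdr and Chgb were again among the 15 highest. Chgb stood at 843, 801 and 836 CPM in somatotrophs (log2 difference 4.13, SE 0.17, adjusted p = 1.56e-08). Isl1, a LIM homeobox factor, stood at 126, 110 and 114 CPM in thyrotrophs against 6.80, 3.08 and 3.90 (4.2, SE 0.20, adjusted p = 4.85e-08), and Lef1, a Wnt effector, at 23.3, 27.8 and 7.89 against 1.07, 0.907 and 0.106. Slc32a1, the vesicular transporter of GABA, stood at 12.4, 25.3 and 37.2 CPM against 0.406, 0 and 0.739. Lower in thyrotrophs were Ceacam10, an adhesion protein, at 2.75, 1.26 and 15.8 CPM against 79.9, 126 and 109, Pcdh20, a protocadherin, at 0, 2.53 and 0 against 19.1, 22.9 and 10.7, and Il1r1, the interleukin-1 receptor, at 1.37, 1.26 and 3.38 against 30.3, 44.1 and 9.07. The 30 genes named by rank here also passed under each of 10 alternatives.

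**Figure D3:**
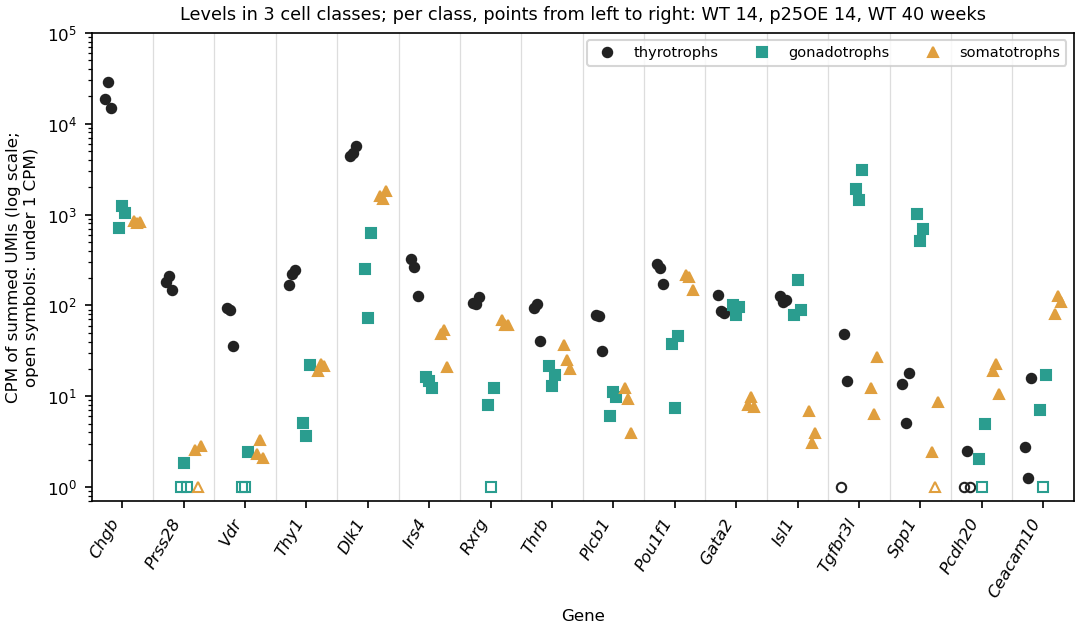
CPM of summed UMIs (log scale, plain CPM, 1 point per library) of 16 genes in thyrotrophs, gonadotrophs and somatotrophs; open symbols lie under 1 CPM. Chgb, Prss28, Vdr, Thy1, Dlk1 and Irs4 lie above both other classes in every library, Pou1f1 lies with somatotrophs, Gata2 and Isl1 with gonadotrophs, and Tgfbr3l and Spp1 are high in gonadotrophs.

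Among lineage factors, Pou1f1 was at a level near that of somatotrophs and Gata2 near that of gonadotrophs. Of 22 factors tested against gonadotrophs 7 were higher and 8 lower (median 0.0041), beside 7.27% and 7.01% of all genes, and of 24 tested against somatotrophs 13 were higher and 3 lower (median 0.64), beside 10.2% and 9.07%. Pou1f1 stood at 286, 258 and 174 CPM, against 37.5, 7.36 and 46.6 in gonadotrophs (log2 difference 3.15, SE 0.29, adjusted p = 8.65e-09) and 217, 203 and 150 in somatotrophs (-0.15, SE 0.11, adjusted p = 0.397). Gata2 showed the reverse, at 130, 87.2 and 82.2 CPM against 101, 79.1 and 95.6 in gonadotrophs (0.26, SE 0.21, adjusted p = 0.495) and 8.07, 9.89 and 7.60 in somatotrophs (3.09, SE 0.19, adjusted p = 3.16e-07). Pitx1, the pituitary homeobox factor, and Lhx3 were higher than in somatotrophs, at log2 differences of 1.56 (SE 0.13) and 1.77 (SE 0.24), and did not pass the test against gonadotrophs. Neurod1, a basic helix-loop-helix factor, was lower than in gonadotrophs (-3.40, SE 0.42, adjusted p = 7.96e-07), and Foxo1 was lower than in both classes (-1.26, SE 0.24 and -1.49, SE 0.16).

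The stem-cell factors Sox2 and Sox9 passed as higher in both comparisons (Sox2 1.88 and 1.32, Sox9 2.74 and 2.20 on the log2 scale). Both are among the markers that define the stem-marked cells, which held from 91.7% to 100% of their UMIs in each library. Leaving those cells out therefore removes their UMIs by construction and tests nothing about them. Without those cells in both classes Six3, another homeobox factor, went from 1.02 to 0.28 against gonadotrophs (adjusted p = 0.612) and was -0.59 against somatotrophs (adjusted p = 0.0206). Chgb, Vdr, Thy1, Dlk1, Ttr, Thrb and Plcb1 stayed called against both classes without them.

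In thyroid hormone signalling, Thrb was higher than in both classes. It stood at 94.7, 105 and 40.6 CPM against 21.3, 12.9 and 17.2 in gonadotrophs (log2 difference 2.32, SE 0.29, adjusted p = 1.19e-06) and 36.9, 25.1 and 19.7 in somatotrophs (1.06, SE 0.17, adjusted p = 0.000823). Thra, the other receptor gene, stood at 102, 94.8 and 59.7 CPM against 94.2, 77.2 and 88.3 in gonadotrophs. Rxrg, the retinoid X receptor that Thrb can pair with, stood at 106, 105 and 123 CPM against 8.10, 0 and 12.3 in gonadotrophs (4.13, SE 0.36, adjusted p = 2.47e-09) and 68.5, 61.0 and 60.7 in somatotrophs (adjusted p = 0.0920). Slc7a5, an amino acid carrier that also takes thyroid hormone, was lower than in gonadotrophs (-3.04, SE 0.48, adjusted p = 3.21e-05). Over the list, 4 of 16 genes were higher and 3 lower than in gonadotrophs, and 1 of 19 higher and 1 lower than in somatotrophs. The list's medians were -0.08 and -0.20, beside 0.01 and -0.02 over all genes, of which 7.27% were higher and 7.01% lower than in gonadotrophs and 10.2% and 9.07% than in somatotrophs.

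In the pathway of the TRH receptor, Plcb1, a phospholipase C beta, was higher than in both classes. It stood at 78.2, 77.1 and 31.5 CPM against 6.08, 11 and 9.81 in gonadotrophs (log2 difference 3.04, SE 0.35, adjusted p = 2.79e-07) and 12.3, 9.25 and 3.90 in somatotrophs (2.41, SE 0.20, adjusted p = 3.08e-06). Rgs4, which shortens Gq signalling, lay between them, at 42.6, 60.7 and 23.7 CPM against 220, 252 and 83.4 in gonadotrophs and 2.49, 4.17 and 1.69 in somatotrophs, and passed in both comparisons. Prkcb, a protein kinase C, was likewise lower than in gonadotrophs (-2.39, SE 0.27) and higher than in somatotrophs (1.56, SE 0.34, adjusted p = 0.00529). Of the list, 2 of 14 were higher and 6 lower than in gonadotrophs, and 5 of 20 higher and 0 lower than in somatotrophs. The shares over all genes were 7.27% and 7.01%, and 10.2% and 9.07%, so that 2 of 14 is near the share over all genes.

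Of 33 listed hypothalamic and peripheral receptors, 19 had at least 1 UMI in thyrotrophs. Of 9 tested against gonadotrophs 0 were higher and 4 lower, beside 7.27% and 7.01% of all genes. Of 13 tested against somatotrophs 4 were higher and 3 lower, beside 10.2% and 9.07%. The somatostatin receptor Sstr2 stood at 9.61, 20.2 and 6.76 CPM, in 6, 11 and 6 cells, against 0.559, 0.272 and 0.422 in somatotrophs (log2 difference 4.25, SE 0.61, adjusted p = 0.00032). The estrogen receptor Esr1 and the progesterone receptor Pgr were lower than in gonadotrophs, at -1.54 (SE 0.21) and -2.89 (SE 0.32).

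Secretory granule genes were higher than in somatotrophs for 17 of 29 list members and lower for 1, beside 10.2% and 9.07% of all genes. Against gonadotrophs 6 of 28 were higher and 2 lower, beside 7.27% and 7.01%. Resp18, an endocrine granule protein, was higher than in both, at 4586, 2937 and 7223 CPM against 1638, 1365 and 1533 in gonadotrophs and 599, 354 and 918 in somatotrophs. Scg2, secretogranin II, was higher than in somatotrophs (log2 difference 2.74, SE 0.18) and did not pass against gonadotrophs (-0.40, SE 0.18, adjusted p = 0.170). Immediate early genes, which stimulation and tissue dissociation both raise, were lower in thyrotrophs for 10 of 23 members against gonadotrophs (0 higher, median -0.78) and for 16 of 28 against somatotrophs (1 higher, median -0.93), beside the same 7.01% and 9.07% of all genes that were lower. Fosb was lower by a log2 difference of -1.51 (SE 0.20, adjusted p = 2.65e-06) and -1.66 (SE 0.13, adjusted p = 1.93e-06), and Btg2 by -1.49 (SE 0.20) and -1.29 (SE 0.16).

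Between p25OE and WT at 14 weeks thyrotrophs differed in few genes. Ratios of scaled CPM carry exact intervals for a pair of Poisson counts, and a gene is counted where the whole interval lies beyond 1.5-fold. Of 4514 genes with at least 50 UMIs over both sums, 28 were higher in p25OE (0.62%) and 28 lower (0.62%), and the median over all tested genes was 0.01 (log2). In gonadotrophs the same contrast gave 1.3% higher and 1.11% lower, and in somatotrophs 1.91% and 1.73%. These shares depend on depth and are not like for like. Somatotrophs held 19694061 UMIs in WT and 11025163 in p25OE, against 728664 and 791435 in thyrotrophs. Over the 3932 genes measured in all 3 classes, 25 were higher and 20 lower in thyrotrophs, 41 and 43 in gonadotrophs, and 50 and 40 in somatotrophs. Of the genes in the rule that chose the cells, Tshb was among those higher in p25OE. Since Tshb chose the cells, this is a description only. Its ratio without the stem-marked cells, given above, was under 1.5-fold. Cga, Trhr, Dio2, Foxl2 and Pvalb were neither among the higher nor among the lower genes. None of 18 lineage factors, 11 genes of thyroid hormone signalling, 13 of the TRH receptor pathway and 5 receptors lay beyond 1.5-fold. With 0.62% of all genes beyond it in each direction, 0 in lists of this size is near that share. Pou1f1 stood at 273 scaled CPM in WT and 236 in p25OE (0.865, 0.710 to 1.05). For Thrb the levels were 90.6 and 96.2 (1.06, 0.762 to 1.48), and for Gata2 125 and 79.9 (0.641, 0.463 to 0.883). Medians of the lists were -0.26 for lineage factors, 0.01 for thyroid hormone signalling and 0.04 for the TRH receptor pathway. Cdk5, the kinase that p25 activates, had 24 UMIs in WT and 52 in p25OE, at 31.5 and 60.2 scaled CPM (1.91, 1.16 to 3.24), which is not past 1.5-fold over its interval. Its activator gene Cdk5r1, from which p25 derives, was at 11.8 and 9.27 scaled CPM and fell under the UMI minimum.

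In the fixed lists of the secretory pathway, as over all genes, few members lay past 1.5-fold. Over all tested genes 0.62% were higher and 0.62% lower, so 0 in lists of this size is near that share. Of 13 genes of glycosylation and folding 0 were higher or lower (median log2 ratio 0.25), of 18 of the unfolded protein response likewise 0 (median 0.34), and of 25 granule genes 1 was higher, Scg2, and 1 lower, Resp18 (median 0.0049). The genes below are those named by rank. Scg2 was found in all 38 WT and all 58 p25OE cells, at 2264 and 4664 scaled CPM (2.06, 1.95 to 2.18). Per cell its CPM ran from 633 through a median of 2652 to 5086 in WT and from 1441 through 5014 to 11399 in p25OE, so the ranges overlapped while the p25OE median lay near the highest WT cell. In gonadotrophs the ratio was 1.05 and in somatotrophs 1.09. Wfdc2, a secreted protease inhibitor, stood at 34.1 and 293 scaled CPM (8.59, 5.72 to 13.4), found in 14 of 38 and 39 of 58 cells. In WT at 40 weeks Wfdc2 stood at 16.7 in 10 of 70 cells. Its ratio was 5.86 in gonadotrophs and 1.15 in somatotrophs. Erp29, a chaperone of the endoplasmic reticulum, stood at 201 and 374 (1.86, 1.53 to 2.27), and Rcn3, a calcium-binding protein of that compartment, at 121 and 278 (2.30, 1.80 to 2.96). Arl1 and Unc50, proteins of the Golgi apparatus, had ratios of 1.98 (1.53 to 2.58) and 2.27 (1.59 to 3.29). In WT at 40 weeks Scg2, Erp29, Rcn3, Arl1 and Unc50 stood at 3647, 247, 172, 141 and 101 scaled CPM. Each of these lay between WT and p25OE of 14 weeks.

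Ggh, a lysosomal hydrolase of folates, Rbp4, the retinol carrier, and Mfge8, a secreted bridging protein, moved apart from gonadotrophs. Ggh stood at 81.4 and 206 scaled CPM (2.53, 1.89 to 3.44), Rbp4 at 116 and 280 (2.43, 1.89 to 3.13) and Mfge8 at 51.2 and 120 (2.35, 1.61 to 3.49). Thyrotrophs of WT at 40 weeks lay between these levels, at 197, 161 and 95.1. In gonadotrophs the ratios were 0.439, 0.201 and 0.267, each lower past 1.5-fold, and the difference between classes rests on 1 library a group and was not tested. The 9 genes Scg2, Wfdc2, Erp29, Rcn3, Arl1, Unc50, Ggh, Rbp4 and Mfge8 stayed past 1.5-fold without the cells with stem-cell markers, with ratios from 1.86 (Scg2) to 13.6 (Wfdc2). Erp29 did not stay past it without the cells that also met another class's rule (1.82). Tnfrsf12a, the receptor of TWEAK, had a ratio of 5.29 (2.59 to 12.2) and without the stem-marked cells 3.13 (1.26 to 9.26). Tagln3 and Wdfy1 also no longer lay past 1.5-fold (1.61 and 1.88), and Rom1 and Ralgds, at 3.82 and 4.86, then fell under the UMI minimum. In WT at 40 weeks Tagln3 and Wdfy1 stood at 78.4 and 63.0 scaled CPM, beside 77.6 and 69.5 in p25OE at 14 weeks. Tnfrsf12a and Ralgds stood at 15.4 each there, beside 62.6 and 51.0, and Rom1 at 29.5, beside 54.5. Lhb, the highest ratio of all, rested on the 1 cell named above. WT thyrotrophs held only 3 Lhb UMIs, 2 of them in 1 cell. Without the cell with most Lhb UMIs in both libraries the ratio was 0.882, from too few UMIs to be read.

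The genes lower in p25OE split in the same way. Cyp2f2, Mia, Gstm1, Tril and Ltbp4 had ratios from 0.325 (Ltbp4) to 0.374 (Mia), and in WT the stem-marked cells held at least 94.7% of the UMIs of each, in p25OE from 71.4% (Ltbp4) to 100% (Cyp2f2). Cyp2f2 helps to define these cells, so its 0 UMIs without them are fixed by the choice. Without them the ratios were 1.04 for Mia, 5.21 for Gstm1, 0.695 for Tril and 1.39 for Ltbp4, all from few UMIs, with wide intervals (0.331 to 3.56, 1.21 to 47.0, 0.00885 to 54.5 and 0.199 to 15.4). In somatotrophs Cyp2f2, Mia and Gstm1 were lower in p25OE too, at 0.153, 0.170 and 0.317. Cck rested on the 1 cell described above. Of the WT UMIs of Cdkn1c, a CDK inhibitor, 82.3% lay in 1 cell, and of those of Ces1d, a carboxylesterase, 64.8%. In p25OE the top cells held 52.4% and 31.0%. Without the cell with most UMIs of the gene in both libraries, the ratios were 0.630 and 0.569. Snhg20, Sypl, Fam126b, Endod1 and Bcor, also among the 15 lowest, had ratios of 0.276, 0.307, 0.309, 0.325 and 0.339. At most 23.9% of the UMIs of each lay in 1 cell of a library. Without the stem-marked cells the ratios were 0.407, 0.272, 0.316, 0.405 and 0.423, and none then counted as past 1.5-fold. They were 1.44, 0.753, 0.310, 0.406 and 0.575 in gonadotrophs and 0.963, 0.710, 0.547, 0.453 and 0.884 in somatotrophs. Aebp1, a matrix-associated protein, stood at 146 and 63.7 scaled CPM (0.437, 0.311 to 0.609), in 28 of 38 and 13 of 58 cells, and was 0.460 without the cells with stem-cell markers. Dbp, a clock output factor, had a ratio of 0.441 (0.289 to 0.663) and 0.389 without them. Resp18 stood at 4387 and 2693 scaled CPM (0.614, 0.582 to 0.647), beside 0.791 in gonadotrophs and 0.594 in somatotrophs. Kcnk3, a background potassium channel, had a ratio of 0.465 (0.322 to 0.664). Without the cell with most of its UMIs in each library, neither Dbp (0.448) nor Kcnk3 (0.462) had an interval wholly past 1.5-fold.

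**Figure D4:**
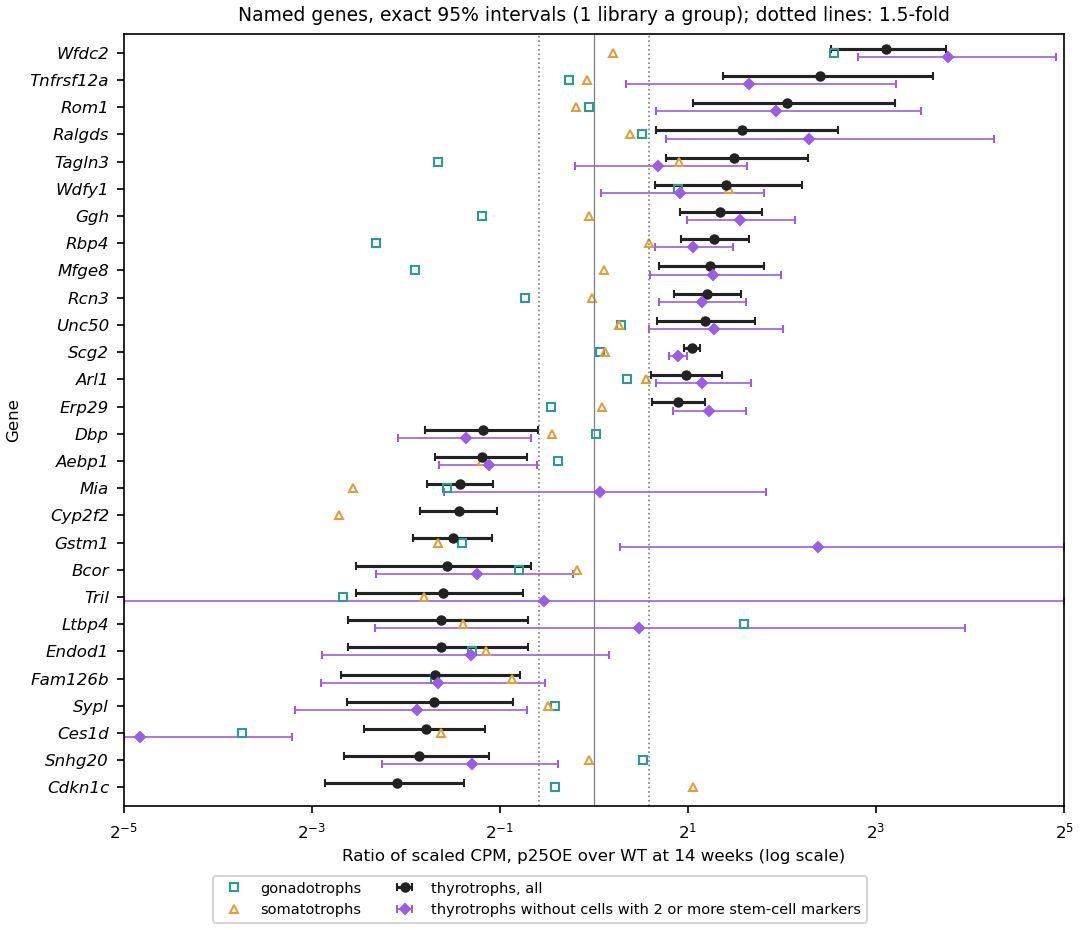
Ratio of scaled CPM, p25OE over WT at 14 weeks (log scale), of the genes named by rank, without Lhb and Cck, which rest on 1 cell; black points with exact 95% intervals are all thyrotrophs, diamonds are thyrotrophs without cells with 2 or more stem-cell markers, and open symbols are gonadotrophs and somatotrophs. Values beyond the axis, such as Cdkn1c without those cells, are not drawn; Scg2, Wfdc2, Ggh and Rbp4 stay to the right of 1.5-fold with and without those cells, and Mia and Ltbp4 move from under 0.4 to above 1.

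With and without the stem-marked cells the counts were close and the genes were not. Leaving these cells out gave 29 higher and 24 lower genes, of which 15 and 13 were among the 28 and 28. Leaving out, for each gene, the cell with most of its UMIs in each library gave 37 higher (0.82%) and 21 lower (0.465%).

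Few immediate early and heat shock genes differed between p25OE and WT thyrotrophs at 14 weeks, and the count depended on the stem-marked cells. In thyrotrophs 2 of 18 members of the list lay past 1.5-fold upward, beside 0.62% of all genes, and ratios ran from 0.711 (Nr4a2) to 2.49. The 2 were Fosb (79 and 187 UMIs, 2.09, 1.60 to 2.75) and Ier2 (80 and 226 UMIs, 2.49, 1.92 to 3.26). Over the 17 members measured in all 3 classes the median log2 ratio was 0.47 in thyrotrophs, 1.26 in gonadotrophs and 1.35 in somatotrophs, beside 0.01, 0.04 and -0.01 over the 3932 genes measured in all 3. Of these members 2, 11 and 13 lay past 1.5-fold upward, beside 25, 41 and 50 of the 3932 genes. The thyrotroph ratio was below both others in 15 of the 17, beside 1407 of the 3932.

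Without the cells with stem-cell markers in all 3 classes the medians were 1.21 in thyrotrophs, 1.35 in gonadotrophs and 1.29 in somatotrophs. The thyrotroph ratio was then below both others in 5 of the 17, beside 1302 of the 3932. Past 1.5-fold upward lay 8, 11 and 13 members, beside 28, 38 and 53 of the 3932 genes. The 10 stem-marked WT cells held 61.7% of the list's 3515 UMIs in WT thyrotrophs, against 41.1% of the UMIs of all 3932 genes. In p25OE the 10 stem-marked cells held 37.2% of 4912, against 26.3%. Fos had a ratio of 1.64 (1.43 to 1.89) over all thyrotrophs and 4.40 (3.32 to 5.92) without the stem-marked cells, beside 3.18 in gonadotrophs and 3.17 in somatotrophs. The difference between classes rests on 1 library a group and was not tested. Btg2 above and the genes named in the caption were picked after their values were seen.

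**Figure D5:**
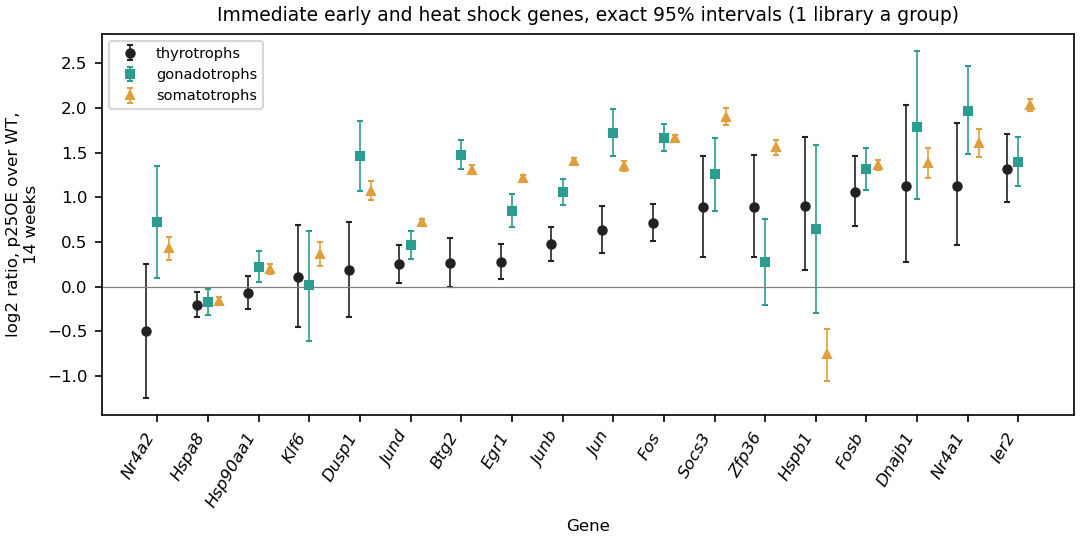
log2 ratio of scaled CPM, p25OE over WT at 14 weeks, of the 18 immediate early and heat shock genes with at least 50 UMIs in thyrotrophs, in thyrotrophs, gonadotrophs and somatotrophs, with exact 95% intervals for counting error (1 library a group). All thyrotrophs are plotted, stem-marked cells included; Fos, Jun, Junb and Btg2 lie lower in thyrotrophs than in both other classes, and Hspa8 lies slightly under 0 in all 3.

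Some genes were higher in p25OE in all 3 endocrine classes, and the genes named for this were chosen after their values were seen. Gm42418 and AY036118, gene models that overlap ribosomal RNA, and Lars2 had ratios of 3.93, 5.41 and 6.26 in thyrotrophs, 5.72, 8.37 and 6.76 in gonadotrophs and 5.04, 6.32 and 4.62 in somatotrophs. Of the 13 mitochondrially encoded genes, mt-Nd4l and mt-Atp8 were higher (1.74 and 2.04) and mt-Co3, mt-Atp6 and mt-Nd3 lower (0.592, 0.609 and 0.593). In gonadotrophs mt-Nd4l and mt-Atp8 were also higher (2.08 and 1.82) and in somatotrophs too (2.05 and 2.25). For mt-Co3, mt-Atp6 and mt-Nd3 the ratios were 0.728, 0.765 and 0.718 in gonadotrophs and 0.741, 0.793 and 0.675 in somatotrophs, where 0 of the 13 were called lower, and the difference between classes was not tested. Their bearing on the other ratios was not tested. No gene of DNA replication licensing reached the UMI minimum in thyrotrophs, so the Mcm genes cannot be compared.

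Between WT at 40 and at 14 weeks more genes differed, and here age cannot be told apart from kit or run. Of 3930 genes 233 were higher at 40 weeks (5.93%) and 297 lower (7.56%). In gonadotrophs 2.61% were higher and 2.83% lower, and in somatotrophs 8.76% and 7.19%, shares that also depend on depth. The balance in thyrotrophs depended on the scaling, with 93 higher and 541 lower in plain CPM. With Tshb at 1% of UMIs or more there were 144 and 158, without cells that also met another class's rule 136 were higher, and without the stem-marked cells 160 were lower. Nuclear genes of oxidative phosphorylation were higher for 21 of 61 members (median log2 ratio 0.69), mitochondrially encoded genes lower for 12 of 13 (median -1.54), and genes of antigen presentation (MHC) higher for 5 of 8. Macrophage markers in thyrotrophs summed to 24.7 CPM at 14 weeks (4 of 5 detected, Csf1r at 0) and 242 at 40 weeks (5 of 5), and erythroid markers to 0 and 2303 CPM (0 and 4 of 4 detected), and their part in the age ratios was not tested. Tshb was 2.28 times (2.24 to 2.33) and Cga 2.26 times (2.24 to 2.29) the level at 14 weeks. Free RNA of both was also higher, at 6.02 and 3.38 times in somatotrophs. Rnaset2a, a ribonuclease gene with a near-identical copy Rnaset2b, so that reads could be split between them, stood at 59.1 and 406 scaled CPM (6.87, 5.02 to 9.61) and was likewise higher in somatotrophs (6.77). Ttr, the carrier transthyretin, stood at 26.3 and 101 (3.87, 2.34 to 6.67) beside 1.06 in somatotrophs, and Ccnd1, cyclin D1, at 151 and 20.6 (0.136, 0.0753 to 0.231) beside 0.421.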

How the data were processed

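Single-cell RNA was measured in 4 libraries, 1 per group. The authors deposited raw UMI counts for 31053 features, made with Cell Ranger 3.0.2 on mm10, per the submitters' processing notes; the file headers give software 3.0.1. Tissue was dissociated in papain (37 °C, 5 minutes) and 5000 to 8000 cells were aimed at, per the labels' protocols.

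Counts were summed per class and library. Condition ratios used median-of-ratios size factors over 3737 genes (20 or more UMIs per library) and the 3 libraries that held thyrotrophs (0.952, 1.08 and 0.973). The design had foreseen libraries with at least 50 thyrotrophs, but WT at 14 weeks held 38. Ratios carry exact 95% Poisson intervals, which cover counting error only, and a gene at 0 is bounded with 3 counts. Classes were compared with edgeR 4.0.16 (quasi-likelihood, TMM, filterByExpr, library as block, Benjamini-Hochberg adjusted p under 0.05), and alternatively DESeq2 1.42.0, in R 4.3.3. Both methods were tested on simulated data. No doublet caller was run.

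The members and gene lists were chosen with earlier results of these data known. Named genes are hormone, Cdk5 and list genes, the 15 highest and 15 lowest per comparison (8 each for age), and genes said to be picked later. Alternatives changed the scaling, the UMI minimum, the rule, the denominator and the tool; leaving out stem-marked cells, other-class cells in the class tests, or each gene's top cell was chosen after seeing the data. Promoters are from RefSeq (GRCm38.p6); Trhr was not matched. Some results are not reported here.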

Additional observations from a re-analysis of the deposited data

How the results depend on the processing

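Each group was 1 library, so counts between conditions have no replicate check. No paired analysis was possible because no group has more than 1 library. The number of genes lower in p25OE at 14 weeks (28) was 17 without the 10% of thyrotrophs with the most UMIs (13 shared), 17 with Tshb at 1% or more (11 shared) and 46 with a minimum of 20 UMIs; the number higher stayed within 1.5 times under every alternative run. For WT at 40 over 14 weeks the number higher was 93 with plain CPM, 136 without thyrotrophs that also carry another class and 144 with Tshb at 1%, and the number lower was 541 with plain CPM, 158 with Tshb at 1%, 498 with 20 UMIs and 160 without stem-marked cells (120 shared). The share of thyrotrophs moved to 0.365%, 0.548% and 0.656% with Tshb at 1% and to 0.401%, 0.462% and 0.617% with cells thinned to 2000 UMIs. It was 0.361% in WT at 14 weeks with at most 10% mitochondrial UMIs, 1.05% in p25OE at 14 weeks among cells with Pomc under 5%, and 1.28% in WT at 40 weeks with 1000 detected genes; it was 0 in p25OE at 40 weeks throughout. Class counts fell with DESeq2 to 244 higher and 278 lower against gonadotrophs and to 563 lower against somatotrophs, and without the library block to 216 and 300, and to 265 and 210. Leaving out 1 library gave 378 to 608 higher and 431 to 588 lower against gonadotrophs, and 775 to 1375 and 654 to 1308 against somatotrophs. The values 378, 775 and 654 are those without p25OE at 14 weeks. Named log2 ratios reversed for Cdkn1c (0.54 without other-class cells, 0.98 with Tshb at 1%). That of Lhb reversed too (-0.27 without other-class cells, -0.18 without its top cell in each library). Without stem-marked cells those of Gstm1 (2.38), Ltbp4 (0.47) and Mia (0.059) reversed. In the class tests Gh (-0.72) and Pomc (-0.99) reversed against gonadotrophs without other-class cells, and Ifitm3 (-0.29) and Sox2 (-0.28) against somatotrophs without stem-marked cells, which Sox2 helps to define. Beyond the cells left out, the cause of these changes was not tested. Depth limits rare genes: no replication licensing gene could be compared.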
